A study of Mus musculus with 2 samples.

Results

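Messenger RNA of 10 immediate early genes, Fos, Fosb, Jun, Junb, Jund, Egr1, Atf3, Nr4a1, Ier2 and Arc, was described by cell class and by library in the mouse locus coeruleus (LC), a small nucleus of the pons whose neurons release noradrenaline through most of the brain. The genes were taken by symbol, 10 of 32285 genes in the count matrices, by a rule that used no measured value, although earlier results of these data were known when the list was drawn up. RNA had been counted in 2 droplet libraries of the Chromium 3' system, here called library 1 (batch 1) and library 2 (batch 2), so batch, replicate and library are the same thing. Both came from dissected LC of wild type mice, male and female, of the strain C57BL/6N at 3 to 4 weeks of age, with no treatment named, and they form 1 group with n = 2. The labels describe methanol-fixed cells freed with papain and, separately, nuclei from frozen tissue sorted with the DNA dye 7-AAD, without saying which library held which, and give neither the number of mice nor how they were pooled. The word cell below stands for either. For each gene, p values rest on the spread left between these 2 libraries after a shift common to all classes is removed. This spread is shared over classes and genes, so it is not that of a single class, and it may be technical.

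Immediate early genes are switched on within minutes of a stimulus by transcription factors already present in the cell, such as CREB, SRF and the ELK proteins, without new protein synthesis. Most encode transcription factors: Fos and Jun proteins pair into the AP-1 dimer, Egr1 and Nr4a1 bind DNA through zinc fingers, and their targets form a later wave of expression. In neurons they are widely used as markers of recent activity, and in many cell types they also respond to growth factors, injury and the handling of tissue.

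On GRCm38 (positions from GENCODE M21), Fos (ENSMUSG00000021250) lies at chr12:85473890-85477273 on the plus strand and Fosb (ENSMUSG00000003545) at chr7:19302696-19310051 on the minus strand. The Jun family genes are Jun (ENSMUSG00000052684, chr4:95049034-95052222, minus), Junb (ENSMUSG00000052837, chr8:84974484-84978718, minus) and Jund (ENSMUSG00000071076, chr8:70698949-70700616, plus). Atf3 (ENSMUSG00000026628) spans chr1:191170296-191218039 on the minus strand and Nr4a1 (ENSMUSG00000023034) chr15:101254269-101274795 on the plus strand. Ier2 (ENSMUSG00000053560) lies at chr8:84661331-84662852 and Arc (ENSMUSG00000022602) at chr15:74669083-74672570, both on the minus strand. Genes on the opposite strand overlapped Jun (Junos, 398 UMIs), Junb (Prdx2, 478 UMIs), Jund (Gm11175, 2 UMIs) and Atf3 (Gm24748, 0 UMIs), a UMI being 1 counted RNA molecule. The UMIs of these partners were counted under their own names. The strand setting of the counting is not given in the sources used here, and a share of partner reads in the counts of the 4 genes was not tested.

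RefSeq promoters on GRCm38.p6, 250 bases before to 50 after the start that RefSeq gives, matched 7 of the 10 genes (not Egr1, Ier2 and Arc). The cyclic AMP response element of CREB and ATF proteins has the core TGACG, which was searched on both strands. It was present in 5 of the 7 promoters (Fos, Fosb, Junb, Atf3 and Nr4a1), against 20.8% of 32851 RefSeq promoters of the same length. These 5 are printed because they hold the core site. Each runs 5′ to 3′ on the gene's own strand, and capitals mark the core site on either strand.
Fos, chr12:85473640-85473939, plus strand: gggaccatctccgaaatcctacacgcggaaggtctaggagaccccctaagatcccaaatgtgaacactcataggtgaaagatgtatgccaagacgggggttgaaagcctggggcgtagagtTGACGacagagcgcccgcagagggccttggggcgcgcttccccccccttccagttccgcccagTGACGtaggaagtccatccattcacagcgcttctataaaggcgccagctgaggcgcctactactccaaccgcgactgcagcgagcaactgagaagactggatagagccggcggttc
Fosb, chr7:19309996-19310295, minus strand: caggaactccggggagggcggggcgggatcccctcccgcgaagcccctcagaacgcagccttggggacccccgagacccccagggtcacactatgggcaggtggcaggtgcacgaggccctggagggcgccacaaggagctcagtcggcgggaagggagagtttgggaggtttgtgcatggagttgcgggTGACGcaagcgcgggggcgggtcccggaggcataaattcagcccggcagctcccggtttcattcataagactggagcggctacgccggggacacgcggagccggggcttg
Junb, chr8:84978699-84978998, minus strand: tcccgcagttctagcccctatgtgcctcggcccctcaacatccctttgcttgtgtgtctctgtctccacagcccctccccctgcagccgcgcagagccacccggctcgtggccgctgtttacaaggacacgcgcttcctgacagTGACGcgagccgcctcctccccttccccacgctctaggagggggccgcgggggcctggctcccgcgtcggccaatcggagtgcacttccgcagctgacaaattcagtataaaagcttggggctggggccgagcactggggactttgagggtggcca
Atf3, chr1:191183284-191183583, minus strand: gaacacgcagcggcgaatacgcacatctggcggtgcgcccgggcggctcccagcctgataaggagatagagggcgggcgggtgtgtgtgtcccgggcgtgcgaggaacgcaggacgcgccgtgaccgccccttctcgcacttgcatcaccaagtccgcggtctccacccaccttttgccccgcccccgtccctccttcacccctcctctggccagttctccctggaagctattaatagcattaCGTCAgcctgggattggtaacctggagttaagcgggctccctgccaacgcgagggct
Nr4a1, chr15:101266596-101266895, plus strand: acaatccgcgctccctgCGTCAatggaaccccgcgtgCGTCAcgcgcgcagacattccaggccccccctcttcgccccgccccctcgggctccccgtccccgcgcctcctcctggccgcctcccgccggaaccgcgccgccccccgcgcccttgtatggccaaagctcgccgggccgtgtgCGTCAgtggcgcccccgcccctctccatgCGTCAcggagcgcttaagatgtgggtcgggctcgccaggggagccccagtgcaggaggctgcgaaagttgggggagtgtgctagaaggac
The Fos promoter held the core site at bases -129 to -125 and -66 to -62 from the start, and TATAAA on its own strand at -33 to -28. In Nr4a1 it lay 4 times on the opposite strand, from -233 to -36, in Fosb at -60 to -56, in Junb at -106 to -102 and in Atf3 at -7 to -3. The full element TGACGTCA, which contains the core site, was in none of the 7 promoters (1.79% of all), nor was the AP-1 site TGANTCA (7.81% of all) or the CArG box of SRF (1.63% of all). The Egr site GCGNGGGCG was in the Fosb and Nr4a1 promoters (5.55% of all), and TATAAA in Fos and Junb (8.32% of all). A match in these windows is a description of letters only.

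Library 1 had 5600693 UMIs in 304 barcodes, with a median of 11010, and library 2 had 6895380 UMIs in 2796 barcodes, with a median of 1517. No barcode occurred in both. After filters 294 and 2680 cells remained, and 2557 of these 2974 had at least 500 genes, beside 2578 cells stated by the series. Clusters made from 143 marker genes, none of them a gene described here, gave 7 neuronal classes (noradrenergic-like, trigeminal-like, excitatory-like, inhibitory-like, granule-like, cholinergic-like and unnamed neurons) and 5 non-neuronal ones (astrocyte-like, oligodendrocyte-like, precursor-like, ependymal-like and vascular-like). Noradrenergic-like cells (12 and 73 cells in libraries 1 and 2) had UMIs of 8 of 8 noradrenergic markers in each library. These markers also served to form and name the class, so they are no separate support for the name. A further non-neuronal cluster of 4 and 203 cells mixed microglial with other markers and stayed out of the tests. Names rest on these rebuilt clusters, and the excitatory-like and cholinergic-like classes did not form under every clustering setting. In library 1 the vascular-like class had 7 cells, and 1 of them carried red cell RNA (hemoglobin genes at 90842.9 CPM of the class sum, against 0 in library 2).

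Over all kept cells the 10 genes summed to 7419 UMIs in library 1 and 9479 UMIs in library 2, from 51 and 65 UMIs of Arc to 1846 and 2524 UMIs of Jun. Levels below are in CPM, the UMIs of a gene summed over the cells of a class in 1 library and scaled so that all genes of that sum add up to 1000000. Vascular-like cells had the highest summed level of the 10 genes, 6550 CPM in library 1 and 4714 CPM in library 2. Precursor-like cells had 4361 and 1938 CPM, and astrocyte-like cells 3174 and 534 CPM, the largest distance between the libraries. The 7 neuronal classes lay between 835 and 1456.68 CPM in library 1 and between 926 and 1691 CPM in library 2. For 8 of the 10 genes the class with the highest mean over the libraries was the vascular-like one, and the exceptions were Jun (precursor-like) and Arc (ependymal-like). Neighbours in the order of classes mostly overlapped: of 11 neighbouring pairs per gene, between 0 (Fos) and 4 (Nr4a1) were apart in the sense that both libraries of the higher class exceeded both of the lower. Neither the top classes nor the pairs apart were counted over all genes, so these counts are not read as particular to the 10 genes.

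**Figure D1:**
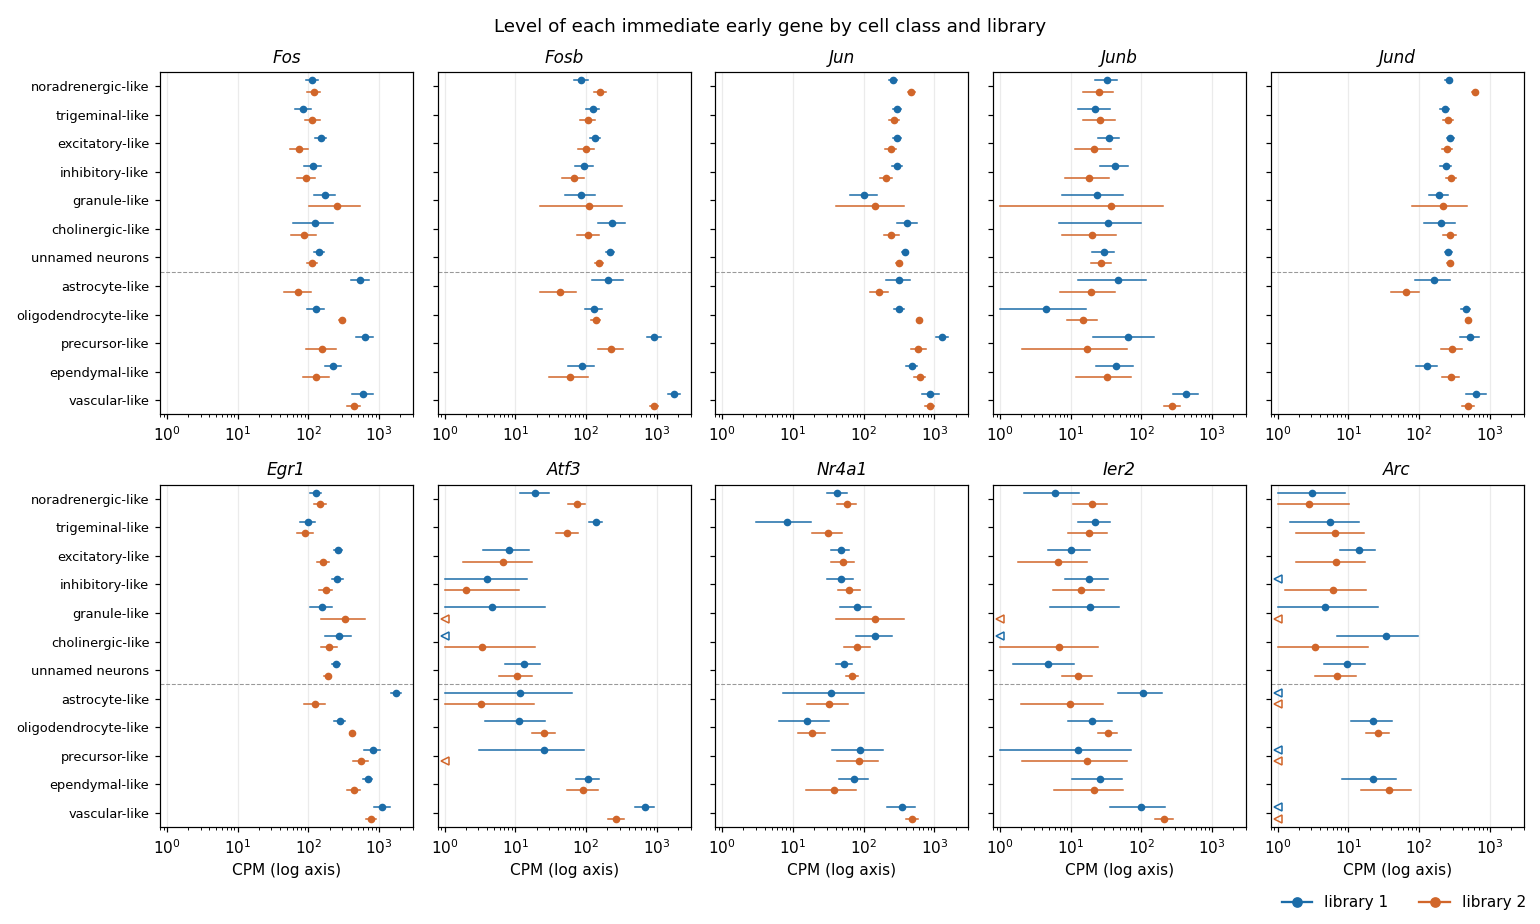
Level of each gene in CPM (log axis) in 12 cell classes, with library 1 in blue and library 2 in orange. Bars are exact 95% Poisson intervals of the count, drawn from 1 CPM upward, open triangles mark sums with 0 UMIs, and the dashed line parts neuronal classes (above) from non-neuronal ones. Fosb, Junb, Atf3 and Nr4a1 are highest in vascular-like cells in both libraries, and Egr1 of astrocyte-like cells is 1755 CPM in library 1 and 124 CPM in library 2.

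Neurons, the cells whose recent activity these genes are mostly used to read, had lower levels of 7 of the 10 genes than the non-neuronal classes. Egr1 fell most clearly, followed by Fos and Jun. Of all 10093 genes tested, 18.0% were lower in neurons and 25.4% higher. The test was edgeR's quasi-likelihood test on the 24 sums of class and library, with the library as a block and Benjamini-Hochberg adjustment over all genes tested. It compared the mean of the 7 neuronal classes with the mean of the 5 non-neuronal ones. None of the 10 was higher in edgeR, at an unadjusted p under 0.05 (0 genes) or in DESeq2 (0 genes). The median log2 fold of the 10 genes was -1.10 (-1.18 with Arc at its limit of 3 counts in classes without a UMI), against 0.06 for all genes tested.

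Fos and Fosb encode the zipper proteins that join a Jun partner in AP-1. Fos averaged 129 CPM over the neuronal classes in library 1 and 123 CPM in library 2, against 424 and 219 CPM over the non-neuronal classes. Single classes overlapped, since astrocyte-like cells of library 2 had 71.6 CPM, below every neuronal class there. The log2 fold of Fos was -1.36 ± 0.16 (SE, adjusted p = 8.47e-14 in edgeR). Fosb averaged 140 and 115 CPM in neurons, against 624 and 275 CPM in non-neuronal classes, and fell by 1.06 ± 0.17 on the log2 scale (adjusted p = 1.7e-08 in edgeR). Here too classes overlapped, with ependymal-like cells at 88.2 and 59.5 CPM. The Fosb fold was -1.34 in library 1 alone and -0.64 in library 2 alone, and that of Fos was -1.48 and -0.88.

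Of the Jun family, Jun, the main partner of Fos in AP-1, had 294 and 272 CPM in neurons, against 653 and 569 CPM in non-neuronal classes, a log2 fold of -1.15 ± 0.15 (adjusted p = 1.01e-11 in edgeR). Junb, which can restrain Jun at shared targets, had 31.1 and 25.1 CPM in neurons, against 118 and 71.0 CPM in non-neuronal classes, and fell by 0.83 ± 0.26 (adjusted p = 0.00552 in edgeR). That difference rested on vascular-like cells, because without their class the fold of Junb was -0.12 and its adjusted p was 0.859. The call also ended with at most 5% mitochondrial UMIs per cell (adjusted p = 0.126). Jund, the family member with steady expression in many tissues, had 237 and 311 CPM in neurons, against 384 and 326 CPM in non-neuronal classes. It did not pass (log2 fold -0.21 ± 0.15, adjusted p = 0.285 in edgeR).

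Atf3, a CREB and ATF family protein induced by cell stress and by axon injury, averaged 26.7 and 21.5 CPM in neurons, against 167 and 77.4 CPM in non-neuronal classes. It was uneven within both groups: trigeminal-like neurons had 137 and 54.4 CPM, while astrocyte-like cells had 1 UMI in each library. The log2 fold was -1.83 ± 0.56 (adjusted p = 0.00418 in edgeR), and without the vascular-like class it was -0.94 with an adjusted p of 0.194. The call also ended when cells were classed by a marker gate cell by cell (adjusted p = 0.0597) and at the finer clustering (adjusted p = 0.0696).

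Egr1 (ENSMUSG00000038418, chr18:34859823-34864984, plus strand), a zinc finger activator, had 202 and 185 CPM in neurons, against 928 and 461 CPM in non-neuronal classes. In library 1 no class overlapped, as the highest neuronal class had 269 CPM and the lowest non-neuronal class 279 CPM. In library 2 astrocyte-like cells, at 124 CPM, lay among the neuronal classes. Its log2 fold of -1.94 ± 0.15 (adjusted p = 1.77e-24 in edgeR) was -2.04 in library 1 alone and -1.40 in library 2 alone. Ier2, a small nuclear protein of the early response, had 11.4 and 11.2 CPM in neurons, against 52.4 and 58.9 CPM in non-neuronal classes, and fell by 1.73 ± 0.40 (adjusted p = 0.000137 in edgeR).

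Nr4a1, an orphan nuclear receptor also called Nur77, did not pass, with 60.6 and 71.5 CPM in neurons, against 112 and 133 CPM in non-neuronal classes (log2 fold -0.39 ± 0.20, adjusted p = 0.112 in edgeR). Without the vascular-like class its fold changed sign, to 0.26 (adjusted p = 0.391), while without the granule-like and cholinergic-like classes it was -0.71 and passed (adjusted p = 0.00235). It also passed as lower under the marker gate and with at least 500 genes per cell (adjusted p = 0.0233 and 0.0273). Arc, a synaptic protein that helps to remove AMPA receptors from the synapse and a common marker of active neurons, had 10.1 and 4.65 CPM in neurons, against 8.94 and 12.8 CPM in non-neuronal classes. It had 0 UMIs in astrocyte-like, precursor-like and vascular-like cells of both libraries, so no fold is given.

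**Figure D2:**
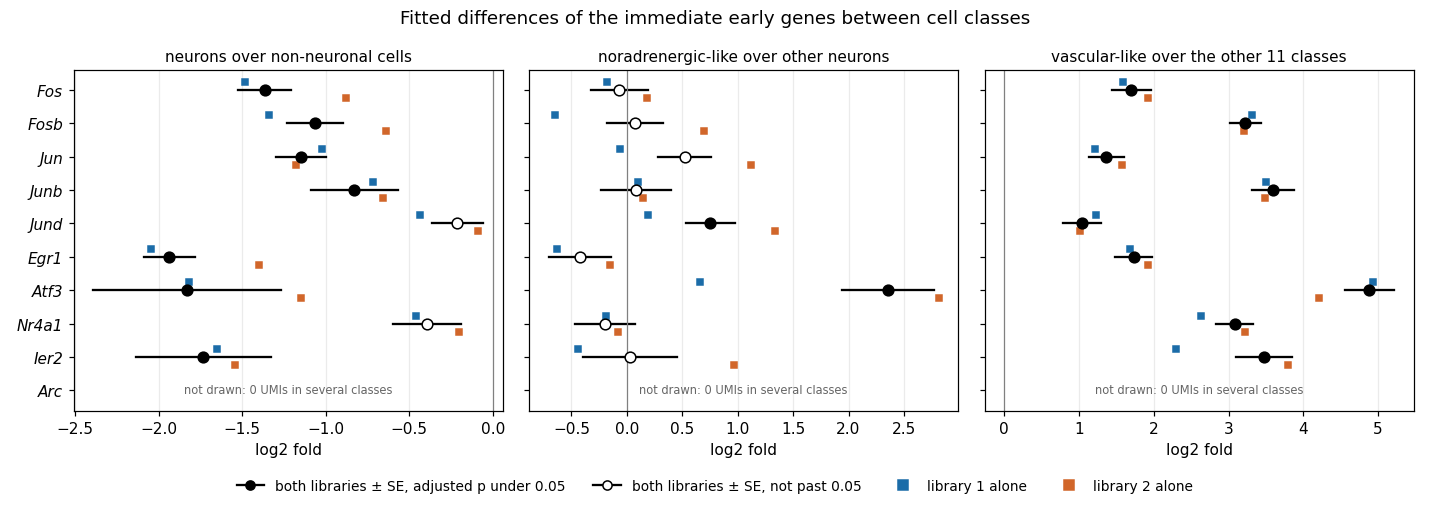
Log2 fold of each gene for neurons over non-neuronal cells (left), noradrenergic-like over other neuronal classes (middle) and vascular-like over the other 11 classes (right). Circles give the fit to both libraries with its SE, filled where the adjusted p was under 0.05, and squares give each library alone. All 9 genes drawn are above 0 in vascular-like cells in each library, while for noradrenergic-like cells Atf3 is 0.66 in library 1 and 2.81 in library 2.

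Vascular-like cells, a class defined by endothelial, mural and related markers, had higher levels of 9 of the 10 genes than the mean of the other 11 classes, where 18.2% of all genes tested were higher. Neurons and glia make up those 11 classes, and each such contrast shares its classes with the others. Atf3 had 678 CPM in vascular-like cells of library 1 and 266 CPM in those of library 2, against 107 and 92.0 CPM in ependymal-like cells, the class with the next highest mean. Both libraries of vascular-like cells lay above every other class. The log2 fold of Atf3 was 4.88 ± 0.33 (adjusted p = 6.46e-31 in edgeR).

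Junb had 430 and 271 CPM in vascular-like cells, and the highest value of any other class was 64.1 CPM (precursor-like cells of library 1). It rose by a log2 fold of 3.59 ± 0.28. Fosb had 1770 and 912 CPM there and rose by 3.22 ± 0.21, and the nearest class was again the precursor-like one (923 and 224 CPM). Nr4a1 had 347 and 488 CPM and rose by 3.08 ± 0.25, with no other class above 147 CPM. These 3 genes were highest in vascular-like cells in both libraries.

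Ier2 had 99.2 CPM in vascular-like cells of library 1, from 6 UMIs, and 212 CPM in library 2, from 47 UMIs, and rose by 3.47 ± 0.38. Astrocyte-like cells had slightly more Ier2 in library 1, 104 CPM from 9 UMIs, and far less in library 2, 9.76 CPM. Egr1 (1108 and 772 CPM), Fos (595 and 438 CPM), Jun (877 and 858 CPM) and Jund (645 and 497 CPM) rose by 1.73, 1.70, 1.37 and 1.04 on the log2 scale. These 4 genes were shared more widely: precursor-like cells of library 1 had 628 CPM of Fos and 1283 CPM of Jun, and noradrenergic-like cells of library 2 had 614 CPM of Jund. Arc had 0 UMIs in vascular-like cells, and 3 counts, the limit that a count of 0 allows, would be 49.6 CPM in library 1 and 13.5 CPM in library 2.

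Library 1 gave 7 vascular-like cells, and the 9 genes passed in each alternative that gave a test. Without the barcode that held red cell RNA the summed level in library 1 was 6815 CPM in place of 6550 CPM, and Atf3 was 692 CPM. The median log2 fold of the 10 genes was 2.41, also with Arc at its limit of 3 counts, against -0.28 for all genes tested. Pan-neuronal markers summed to 595 CPM in vascular-like cells of library 1 and 1133 CPM in those of library 2. The neuronal classes had at least 5398 CPM in library 1 and at least 6350 CPM in library 2. Clusters were called neuronal at 5000 CPM of these markers, so the gap follows from the naming and is no check of it.

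Noradrenergic-like neurons, the principal cells of the LC, had 2 of the 10 genes, Atf3 and Jund, higher than the other 6 neuronal classes. This count was near the share of all genes tested, of which 19.4% were higher and 10.0% lower. None of the 10 was lower in edgeR, at an unadjusted p under 0.05 or in DESeq2 (0 genes each). Among those 6 classes, the unnamed neurons held a cluster of 1 and 71 cells with the noradrenergic markers Slc6a2 and Ddc among its top genes. The marker gate named 26 and 75 cells noradrenergic-like and the finer clustering 23 and 97, so the other classes may hold such neurons. Atf3 had 19.2 CPM in noradrenergic-like cells of library 1, from 19 UMIs of which 1 cell held 11, and 73.4 CPM in those of library 2, from 52 UMIs in 28 of 73 cells. Among other neurons trigeminal-like cells were higher in library 1 (137 CPM) and lower in library 2 (54.4 CPM), and the remaining 5 classes reached at most 13.3 CPM. The inhibitory-like, granule-like and cholinergic-like classes held at most 2 UMIs of Atf3 per library. The log2 fold was 2.36 ± 0.41 (adjusted p = 7.76e-07 in edgeR), with 0.66 in library 1 alone and 2.81 in library 2 alone. With all other neurons summed into 1 group it was 0.72 (adjusted p = 0.224), and with at most 5% mitochondrial UMIs per cell 1.85 (adjusted p = 0.0609).

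Jund had 263 and 614 CPM in noradrenergic-like cells, against 191 to 277 CPM in the other neuronal classes of library 1 and 220 to 286 CPM in those of library 2. It thus stood apart in library 2 and not in library 1. The log2 fold was 0.75 ± 0.22 (adjusted p = 0.00468 in edgeR), with 0.19 in library 1 alone and 1.34 in library 2 alone. Under the marker gate it was 0.70 with an adjusted p of 0.0628. The other 8 genes did not pass, among them Fos (112 and 119 CPM in noradrenergic-like cells) and Egr1 (128 and 148 CPM). All 11 heat shock genes tested were higher in noradrenergic-like cells than in other neurons, and their mitochondrial share was 4.48% in library 1 and 7.82% in library 2, against 1.71 to 4.57% and 2.81 to 8.48% in the other neuronal classes. The part of these in the difference was not tested.

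Against the mean of all other classes, noradrenergic-like cells had higher Atf3 (log2 fold 1.37) and Jund (0.61), and lower Egr1 (-1.27) and Fos (-0.68), where 27.8% of all genes tested were higher and 11.7% lower. The folds of Atf3 and Jund were -0.21 and -0.02 in library 1 alone, so both rested on library 2 (2.11 and 1.21). The Atf3 call ended under 4 alternatives, with a fold of 0.00 at 5% mitochondrial UMIs, and the Jund call under DESeq2 (adjusted p = 0.0903) and the marker gate. Fos did not pass under 8 of the alternatives and had a fold of -0.84 in library 1 alone and -0.23 in library 2 alone. Egr1 kept its call under each alternative with a test, at -1.52 in library 1 alone and -0.77 in library 2 alone.

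Trigeminal-like neurons, large sensory neurons that lie beside the LC, had higher Atf3 and lower Egr1, Nr4a1 and Fos than the mean of the other classes (25.8% of all genes tested were higher, 11.5% lower). Atf3 was present in 11 of 11 cells of library 1 and in 16 of 39 cells of library 2, and its log2 fold was 2.64 ± 0.31 (2.60 in library 1 alone, 1.71 in library 2 alone). Egr1 had 98.9 and 90.6 CPM in trigeminal-like cells, the lowest mean of the 12 classes, and a fold of -1.82 ± 0.31. Nr4a1 had 8.25 CPM from 6 UMIs in library 1 and 31.3 CPM from 19 UMIs in library 2, with a fold of -1.82 ± 0.33 (-2.45 in library 1 alone, -1.01 in library 2 alone). Fos, with a fold of -0.85 ± 0.27, was -1.26 in library 1 alone and -0.25 in library 2 alone, and its call ended under DESeq2 (adjusted p = 0.189).

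The remaining neuronal classes had few calls. Inhibitory-like cells had lower Atf3 (-2.69, from 2 and 1 UMIs), Fosb (-1.09) and Fos (-0.81), where 2.70% of all genes tested were lower. Granule-like cells had lower Jun (-1.87), at 103 and 147 CPM (3.42% of all genes lower), excitatory-like cells lower Fos (-0.73, 4.25% of all genes lower), and unnamed neurons lower Ier2 (-1.15, from 5 and 18 UMIs, 3.25% of all genes lower). At the finer clustering the call of Jun in granule-like cells ended (-0.88, adjusted p = 0.0685), and at 5% mitochondrial UMIs that of Fosb in inhibitory-like cells (adjusted p = 0.126). The calls of Fos in inhibitory-like and excitatory-like cells and of Ier2 in unnamed neurons ended under DESeq2 (adjusted p = 0.233, 0.213 and 0.145), while in single libraries Fos was -0.91 in library 2 and -0.44 in library 1 for excitatory-like cells and Ier2 was -1.31 in library 1 and -0.32 in library 2. In cholinergic-like cells no gene of the list passed in edgeR, where 10.3% of all genes tested did, none passed in DESeq2, and 3 of the 10 had an unadjusted p under 0.05, all of them lower.

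Oligodendrocyte-like cells, the myelinating glia, had 6 of the 10 genes higher and 2 lower than the mean of the other classes, where 25.3% of all genes tested were higher and 14.4% lower. Jund had 457 and 493 CPM and rose by a log2 fold of 1.23 ± 0.20, about equally in each library alone (1.12 and 1.24). Arc had 10 UMIs in 8 of 40 oligodendrocyte-like cells of library 1 and 32 UMIs in 29 of 737 such cells of library 2, and rose by 3.46 ± 0.61. This fold depends on the classes at 0, and in single libraries it was 1.70 and 2.22. Astrocyte-like cells of 15 and 296 barcodes held no Arc UMI, at a median of 5440 and 968.5 UMIs per cell, beside 9832.5 and 1436 in oligodendrocyte-like cells. Arc was thus found in oligodendrocyte-like cells of both libraries and in astrocyte-like cells of neither. In astrocyte-like cells the limit of 3 counts would be 34.6 CPM in library 1 and 9.76 CPM in library 2. Oligodendrocyte-like cells had 22.6 and 26.3 CPM, so the absence in library 1 shows no difference between these classes.

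Fos, Jun, Egr1 and Ier2 rose in oligodendrocyte-like cells by 0.92, 0.83, 0.73 and 1.01, mostly from library 2. Clusters of 224 and 125 library 2 cells in this class held 0 cells of library 1. The class was therefore not made up alike in the 2 libraries. Fos had 127 CPM in library 1 and 300 CPM in library 2, with folds of -0.38 in library 1 alone and 1.57 in library 2 alone. Egr1 was -0.04 in library 1 alone and 1.20 in library 2 alone, Jun 0.04 and 1.28, and Ier2 0.42 and 1.26. All 4 calls ended under DESeq2, under the marker gate and with library sizes as the only scaling (0.54 for Fos, 0.46 for Jun, 0.36 for Egr1 and 0.65 for Ier2). That scaling moved the median of all genes in this contrast by -0.36, and 17.4% of all genes were then higher and 20.9% lower. Nr4a1, at 15.9 and 18.9 CPM the lowest mean of the 12 classes, fell by 1.54 ± 0.33, and Junb, from 2 and 18 UMIs, fell by 1.15 ± 0.38 (-2.31 in library 1 alone, -0.57 in library 2 alone). The Junb call ended without the vascular-like class (adjusted p = 0.0835).

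Precursor-like cells, which carry markers of oligodendrocyte precursors, had 4 genes higher, where 7.40% of all genes tested were higher: Fosb (1.81 ± 0.27), Jun (1.40 ± 0.24), Egr1 (1.20 ± 0.28) and Fos (1.09 ± 0.31). Fosb had 923 CPM in library 1 and 224 CPM in library 2, with folds of 2.25 and 0.84 in each alone. Fos had 628 and 155 CPM, with folds of 1.62 and 0.13, so its difference came from the 11 cells of library 1. Egr1 was even over the libraries (808 and 551 CPM, folds of 1.14 and 1.22), but its call and that of Fos ended under DESeq2 (adjusted p = 0.144 and 0.207) and under the marker gate.

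Ependymal-like cells, the ciliated lining of the ventricle, had higher Atf3, Arc, Egr1 and Jun and lower Fosb (24.2% of all genes tested were higher, 13.7% lower). Atf3 was found in 11 of 18 cells of library 1 and 14 of 104 cells of library 2, with a fold of 2.82 ± 0.40. Arc had 6 UMIs in 6 cells of library 1 and 7 UMIs in 7 cells of library 2, with a fold of 3.39 ± 0.81 that depends on the classes at 0. Egr1 had 691 and 438 CPM (1.09 ± 0.25), and Jun 478 and 617 CPM (0.78 ± 0.24), and both calls ended at 5% mitochondrial UMIs. Fosb had 88.2 and 59.5 CPM, the lowest mean of the 12 classes (-1.08 ± 0.34), a call that ended under DESeq2 (adjusted p = 0.115).

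Astrocyte-like cells had higher Egr1 (1.40 ± 0.26) and lower Jund (-1.68 ± 0.35), where 14.9% of all genes tested were higher and 8.13% lower. The Egr1 call stood on library 1 and its sign differed between the libraries, with a fold of 2.47 in library 1 alone and -0.94 in library 2 alone. Jund was lower in each, with folds of -0.85 and -2.12.

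Between the libraries no test is possible with 1 sample each, and the ratios below carry exact 95% intervals that cover counting error only. In astrocyte-like cells Egr1 had 152 UMIs in 15 cells of library 1 (1755 CPM) and 38 UMIs in 296 cells of library 2 (124 CPM), a log2 ratio of 3.83 (3.31 to 4.38). Fos had 543 and 71.6 CPM (2.92, 2.16 to 3.72), and Fosb 208 and 42.3 CPM (2.30, 1.19 to 3.45). Jund had a log2 ratio of 1.31 and Jun of 0.91. Thus 4 of the 5 genes with at least 20 UMIs over both libraries were at least 2-fold higher in library 1, as were 6.22% of all 3213 genes with that many UMIs in this class.

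Precursor-like cells showed the same direction for Fosb (2.04, 1.38 to 2.75), Fos (2.02, 1.21 to 2.89) and Jun (1.11, 0.65 to 1.57), 3 of 5 genes at least 2-fold higher in library 1 beside 9.24% of all genes. Noradrenergic-like cells showed the opposite for 3 of 9 genes, at least 2-fold higher in library 2 beside 4.19% of all genes: Atf3 (-1.93, -2.77 to -1.15), Ier2 (-1.70, -3.37 to -0.23) and Jund (-1.22, -1.45 to -1.0). In oligodendrocyte-like cells 3 of 10 genes were at least 2-fold higher in library 2, beside 6.97% of all genes: Fos (-1.24, -1.67 to -0.83), Junb (-1.71, -4.86 to 0.36) and Atf3 (-1.17, -2.89 to 0.21). The intervals of Junb and Atf3 reached past 0.

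The excitatory-like class had none of 7 genes past 2-fold in either direction (4.88% of all genes were higher in library 1 and 2.56% in library 2). Its Fos lay just under that limit, higher in library 1 (0.995, 0.505 to 1.51). The unnamed neurons had 1 of 10, Ier2, higher in library 2 (5.05% of all genes). The order of the classes therefore differed by library: astrocyte-like cells ranked at the top of the 12 classes for Egr1 in library 1 and at rank 11 in library 2. Mitochondrial RNA was 2.33% of astrocyte-like UMIs in library 1 and 5.59% in library 2, Malat1 2.74% and 3.69%, heat shock genes 1362 and 1113 CPM, and the median depth 5440 and 968.5 UMIs. Mitochondrial shares were higher in library 2 in each of the 12 classes. Depth, preparation, batch and the make-up of a class cannot be told apart here, and the part of any of them in these ratios was not tested.

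**Figure D3:**
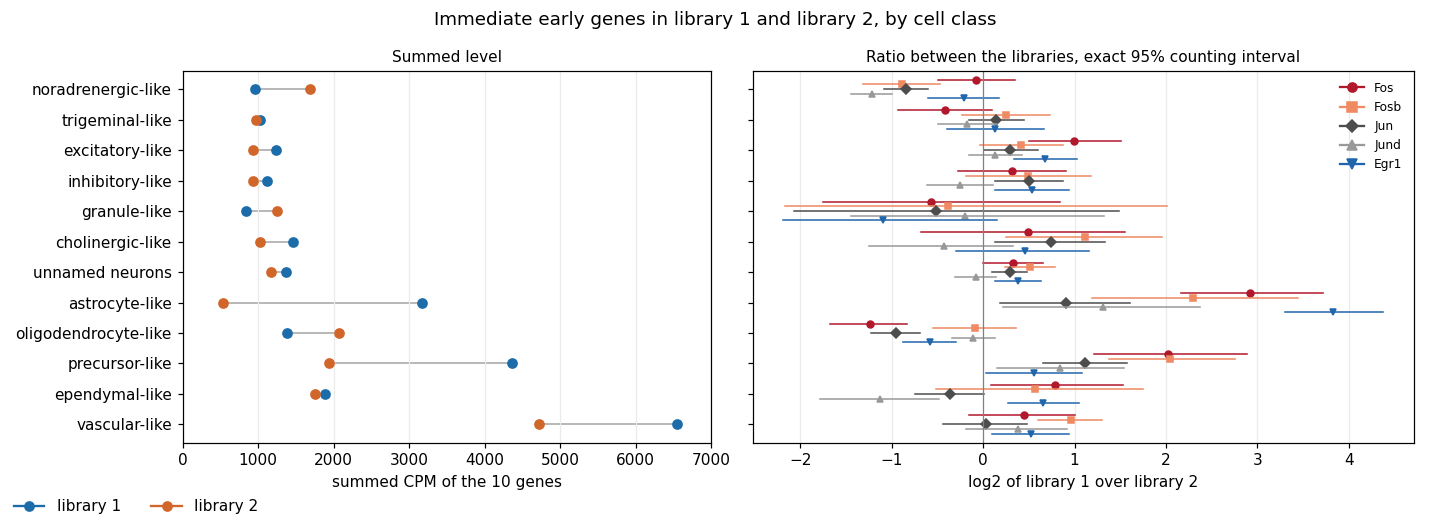
Left, summed CPM of the 10 genes in each cell class in library 1 (blue) and library 2 (orange). Right, log2 ratio of library 1 over library 2 for Fos, Fosb, Jun, Jund and Egr1 with exact 95% counting intervals. Astrocyte-like cells sum to 3174 CPM in library 1 and 534 CPM in library 2, and their Egr1 ratio of 3.83 lies farthest to the right.

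Within cells, each cell was thinned to 1000 UMIs so that depth was equal, and shallower cells were left out (91 of 169 vascular-like and 158 of 296 astrocyte-like cells of library 2, and none of the cells of these classes in library 1). In vascular-like cells 5 of 7 in library 1 (71.4%, exact 95% interval 29.0 to 96.3) and 53 of 78 in library 2 (68.0%, 56.4 to 78.1) then had UMIs of 3 or more of the 10 genes. Of these cells 0 of 7 and 1 of 78 had none of the genes. In precursor-like cells it was 7 of 11 and 7 of 41, in oligodendrocyte-like cells 3 of 40 and 124 of 584 (21.2%, 18.0 to 24.8), in astrocyte-like cells 4 of 15 and 4 of 138. Noradrenergic-like cells had 0 of 12, which allows up to 26.5% (upper end of the exact interval), and 7 of 73 (9.59%). At 2000 UMIs per cell it was 3 of 12 (25.0%) and 27 of 72 (37.5%) noradrenergic-like cells. Without thinning these cells had a median of 83596.5 UMIs in library 1 and 8080 UMIs in library 2. Fos was then found in 11 of 12 and 43 of 73 of them. The other genes ran from Arc (3 of 12 and 2 of 73) to Jund (12 of 12 and 66 of 73).

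Egr1 was found in 10 of 15 thinned astrocyte-like cells of library 1 and in 15 of 138 of library 2. Thinning makes the UMIs per cell equal and leaves out the shallower cells, and the part of depth in this distance was not tested. Without thinning, 14 of 15 and 30 of 296 such cells had an Egr1 UMI. Fosb was found in 6 of 7 and 42 of 78 thinned vascular-like cells, and in 7 of 7 and 86 of 169 without thinning. No class is known to lack these genes, so free RNA has no clean reference here. Fosb was found in 3 of 15 thinned astrocyte-like cells of library 1 (20.0%) and in 6 of 138 of library 2 (4.35%).

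**Figure D4:**
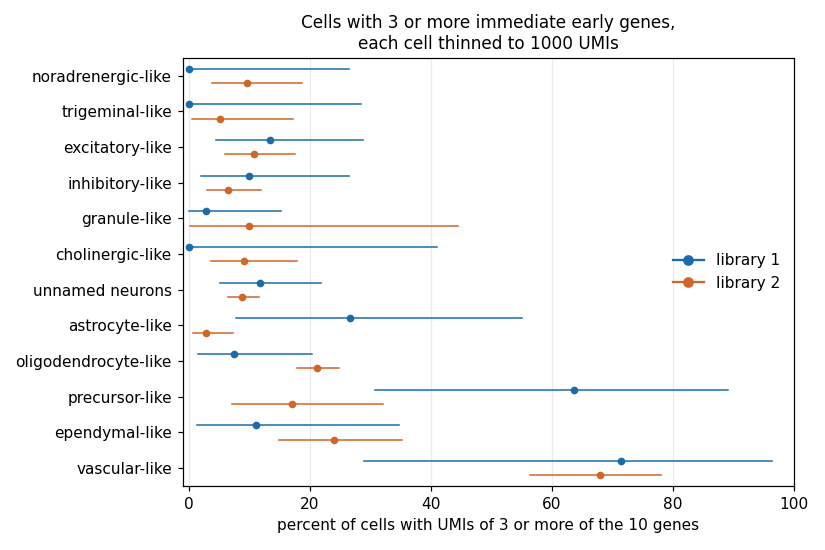
Percent of cells with UMIs of 3 or more of the 10 genes after thinning each cell to 1000 UMIs, by cell class, with library 1 in blue and library 2 in orange and exact 95% binomial intervals. Vascular-like cells stand at 71.4% and 68.0%, while noradrenergic-like cells stand at 0% and 9.59%.

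Summed over classes, the 8 pairs counted shared more thinned cells in each library than the product of their shares within a class gives. These counts carry no interval, and in library 1 the excess was as small as 19 against 18.5 (Jun with Jund). Single classes went both ways: Egr1 with Jun in library 2 had 1 against 4.61 in excitatory-like cells and 31 against 20.4 in unnamed neurons. Fos and Egr1 were found together in 14 thinned cells of library 1, against 11.4 from the products summed over classes, and in 121 of library 2, against 77.8. For Fos and Fosb it was 14 against 10.5 and 66 against 46.3, and for Fos and Jund 9 against 7.69 and 103 against 97.1. The ratio was highest for Fos with Fosb (1.33) and lowest for Jun with Jund (1.03) in library 1, and highest for Fos with Egr1 (1.55) and lowest for Fos with Jund (1.06) in library 2. The 10% of cells richest in the 10 genes held 38.0% of their UMIs in vascular-like cells of library 2 and 25.6% of all UMIs, and in noradrenergic-like cells of library 2 26.6% and 22.8%. The cells were ranked by these same UMIs, which raises their share by itself, so the excess does not show a separate group of cells.

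Over the 24 sums, after each library's own mean was taken off, the gene most like Fos was Egr1 (Pearson r = 0.87), followed by the clock gene Per1 (0.85) and Dcun1d3 (0.85), among 4701 genes with at least 200 UMIs in each library. Fosb was most like Slc1a1 (0.84), Dcun1d3 (0.84) and Klf6 (0.83), and Egr1 most like Fos (0.87), Ap3b1 (0.84) and Sash1 (0.82). Junb followed Rapgef2 (0.90), Zc3h7a and Diaph1, Nr4a1 followed Zcchc14 (0.90), Insr (0.90) and Slc39a10, and Atf3 followed Myh9 (0.88), Gcnt2 and Ppp1r2. Jun (Yy1, 0.79, Zswim6 and Fosb) and Jund (Tmeff1, 0.75, Dazap1 and Gsk3a) had looser likenesses. These sums share libraries and classes, so the correlations describe the pattern and carry no test. Among the 10 genes themselves r ran from 0.17 (Jund with Arc) to 0.87 (Fos with Egr1), and Junb with Nr4a1 reached 0.86.

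Other genes of the response were counted from lists. Of 16 further immediate early genes tested, 6 were lower in neurons than in non-neuronal classes and 1 higher. Npas4, a neuron-specific factor of the early response, had 47.7 and 48.1 CPM in neurons, against 0 and 6.11 CPM in non-neuronal classes (log2 fold 4.11), while Ccn1 (-3.91), Klf10 (-2.59) and Maff (-2.21) were lower. In vascular-like cells 15 of these 16 were higher than in the other classes, where 18.2% of all genes tested were higher, led by Klf2 (7.75), a flow-responsive factor of endothelium, Zfp36 (6.77), which speeds the decay of AU-rich messages, and Egr3 (5.64). Npas4, with 0 UMIs there, was lower, a call that depends on a class at 0. The limit of 3 counts would be 49.6 CPM in vascular-like cells of library 1 and 13.5 CPM in those of library 2. The absence in library 1 therefore shows no difference from neurons. Between noradrenergic-like and other neurons 2 of the 16 were higher, where 19.4% of all genes tested were higher.

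Upstream of the response, 4 of 17 transcription factors and kinases tested were higher in neurons, among them Camk4 (1.98), Mapk10 (1.07) and Mapk3 (0.93), and 3 were lower, Elk4 (-1.84), Rps6ka5 (-1.23) and Creb1 (-0.95). Creb1, whose protein binds the cyclic AMP response element, had 49.3 and 38.5 CPM in neurons, against 81.6 and 92.8 CPM in non-neuronal classes. Among further zipper genes, Atf2 (0.60) and Mafg (0.58) were higher and Atf7 (-1.28) lower. Downstream, 8 of 13 late response genes of neurons were higher in neurons and the other 5 did not pass, led by Vgf (3.99), Bdnf (3.58) and Scg2 (3.14), which encode secreted peptides and a growth factor. That list was made of genes known from neurons, so its direction in this contrast is not independent of the choice. Of 11 heat shock genes 5 were higher in neurons, Hspe1 (1.83), Hspd1 (1.10) and Hspa8 (0.67) among them, and of 5 nuclear RNAs Meg3, Snhg11 and Miat were higher and Neat1 and Malat1 lower. Of all genes tested, 25.4% were higher and 18.0% lower in that contrast.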

How the data were processed

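Per the file headers and the submitters' processing notes, the deposited matrices hold raw counts, 1 whole number of UMIs per gene and barcode without normalization; the notes name Cell Ranger 7.0, Seurat, mm10 and GRCm38, and the matrix headers Cell Ranger 6.1.2. The handling of intronic reads is not given in the sources used here. Both libraries were used and all columns had a sample.

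Kept barcodes had 300 genes or more and a mitochondrial share of at most 20%, and the highest Scrublet scores were removed as doublets (0.8% per 1000 barcodes; 1 and 60 cells). Cells were clustered with scanpy 1.11.5 on 143 marker genes of 22 lists only (20 components, 15 neighbours, Leiden resolution 1.0 with igraph 0.11.9), and neurons left unnamed were clustered again among themselves. A cluster was neuronal at 5000 CPM of pan-neuronal markers and took a name from at least 3 markers past a log2 ratio of 2 (1 in the second round).

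UMIs were summed per class and library, and the 24 sums were fitted with edgeR 4.0.16 (limma 3.58.1, R 4.3.3): terms for class and library, TMM, filterByExpr with a minimum count of 10, two-sided tests, Benjamini-Hochberg adjustment over all genes, threshold 0.05. The library was the block because every class was drawn from both libraries. Spread is shared over genes and classes, and each SE was taken as the absolute fold divided by the root of its F statistic. Folds of 1 library are differences of log2 CPM with a prior count of 2 and carry no test. The fit was tested on simulated data. DESeq2 1.42.0 was an alternative. Other software was matplotlib 3.10.9, scikit-learn 1.9.0, anndata 0.12.19, scipy 1.17.1, numpy 2.4.6 and pandas 2.3.3 under Python 3.11.15.

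The 10 genes and all lists (further early genes, upstream factors, zipper genes, late response, heat shock and nuclear RNAs) were chosen with earlier results of these data known. The result of 1 gene of these lists is not reported here. The 10 genes were always named. Of each list at most 3 genes a direction were named, those past the threshold with the largest fold. For genes of like pattern, the 3 with the highest r were named for members with at least 100 UMIs in each library. Of 32285 features, 32158 (99.6%) were found in GENCODE M21.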

Additional observations from a re-analysis of the deposited data

How the results depend on the processing

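The count of genes lower in neurons was 7, and 5 to 8 under the alternatives. Between noradrenergic-like and other neurons the count of higher genes was 2, and it was 1 under the marker gate, with at most 5% mitochondrial UMIs and with 4 sums over all cells, while the count of lower genes was 0, and 1 under the last 2 of these. Over all classes 27 calls were higher and 15 lower. The higher calls numbered 17 under the marker gate, and the lower ones 9 under DESeq2 and 27 without the granule-like and cholinergic-like classes. Leaving out classes or red cell barcodes was chosen after seeing the data.

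Without the library as a block the counts for neurons and for noradrenergic-like against other neurons were the same. Of single calls, Fos in noradrenergic-like (adjusted p = 0.075 in edgeR), excitatory-like (0.113) and inhibitory-like cells (0.1), Ier2 in unnamed neurons (0.0695) and Egr1 in oligodendrocyte-like cells (0.0927) ended. With 1 library left out no test is possible, so counts of calls have no such value.

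Jund in neurons changed sign to 0.21 with at most 5% mitochondrial UMIs and to 0.013 without the vascular-like class, and Nr4a1 to 0.26 there. In 1 library alone 5 folds turned. The values in libraries 1 and 2 were -0.21 and 2.11 for Atf3 and -0.018 and 1.21 for Jund in noradrenergic-like, 2.47 and -0.94 for Egr1 in astrocyte-like, and -0.38 and 1.57 for Fos and -0.045 and 1.20 for Egr1 in oligodendrocyte-like cells. The cause was not tested.

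The mean summed level was 1080.0 CPM in excitatory-like cells, and 858 CPM at the finer clustering. With at most 5% mitochondrial UMIs it was 1150.0 CPM in inhibitory-like cells (1025 CPM with 20%), 1610.0 CPM in ependymal-like cells (1815 CPM) and 4260.0 CPM in vascular-like cells (5632 CPM). At 2000 in place of 1000 UMIs per cell the share with 3 or more of the genes was 100% and 92.0% in vascular-like, 30.0% and 44.1% in oligodendrocyte-like, 90.9% and 20.0% in precursor-like, 73.3% and 0% (4 cells) in astrocyte-like, and 25.0% and 37.5% in noradrenergic-like cells of libraries 1 and 2, where a deeper sample gives more UMIs. Shares of the shallower library and counts under 10 UMIs, such as those of Arc, Ier2 and Atf3 in small classes, limit what depth can show.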
